A study of Mus musculus with 6 samples.

Results

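The genes of cholesterol and fatty acid synthesis that sterol regulatory element-binding proteins (SREBPs) are known to control were examined in mouse corneal epithelium with and without Rela, the gene of a canonical NF-κB subunit. They were 33 of the 17866 genes in the deposited table, picked by gene symbol from knowledge of the pathway, and all 33 were found. The material was the separated corneal epithelium of C57BL/6 mice aged 6 months, sequenced as 3 wild type (WT) and 3 Rela knockout (KO) bulk RNA-seq libraries. KO animals carried floxed Rela alleles and Krt14-Cre, and the labels write their genotype as Rela-/-, while whether the controls carried Cre was not given in the sources used here. The Krt14 promoter that drives this Cre is also active in conjunctiva, meibomian gland, skin and oral mucosa.

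Cells build cholesterol from acetyl-CoA through mevalonate, the isoprenoids and squalene, whose ring closure and trimming yield the sterol. Fatty acids are built from the same acetyl-CoA, and are then elongated and desaturated. SREBPs wait in the membrane of the endoplasmic reticulum, held by Scap and the Insig proteins, and when sterols run low they are carried to the Golgi, cut, and sent to the nucleus, where they turn on both pathways. In surface epithelia these lipids feed membranes and the barrier, and in the lids they feed the tear film.

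In KO libraries most fatty acid enzymes among the 33 genes fell, while the cholesterol enzymes among them were split. A list of other genes of fatty acid synthesis and elongation, outside the 33, had 9 of 25 lower and 9 higher. Of the 33 genes, 16 fell and 3 rose by an adjusted p at or under 0.05 (edgeR's quasi-likelihood test with Benjamini-Hochberg adjustment over 13305 genes), and 14 did not pass. Over all tested genes 30.2% fell and 31.8% rose by the same rule. The 48.5% of the 33 genes that fell lay above that background, and the 9.09% that rose lay below it. The 33 genes were chosen with earlier results of these data known, so this difference does not test the pathway. The median log2 fold change, KO against WT, was -0.32 over the 33 genes and 0.01 over all tested genes. It was -0.09 without WT replicate 2 and -0.51 without WT replicate 1, so its size rested on which WT library was kept. The 9 enzymes of fatty acid synthesis, elongation and desaturation included 7 that fell and none that rose, with a median of -0.96, which was -0.94 without WT replicate 2. The 18 enzymes of cholesterol synthesis included 6 that fell and 2 that rose, with a median of -0.13. Without WT replicate 2, 5 of these 18 fell, 5 rose and the median was 0.03.

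The study used a stricter threshold, with adjusted p at most 0.001 and at least 2-fold change. At that threshold the genes that fell were Fads1, Fads2, Scd2 and Srebf1, and the gene that rose was Ebp. The background at this threshold was 8.24% of tested genes lower and 11.6% higher. All 3 KO libraries lay below all 3 WT libraries for 16 of the 33 genes, against 33.9% of all tested genes. They lay above for 4 genes, Scap, Pmvk, Hsd17b7 and Ebp, against 34.7% of all tested genes. The remaining 13 genes overlapped. Levels below are in CPM, counts scaled to a normalized library total of 1000000.

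**Figure D1:**
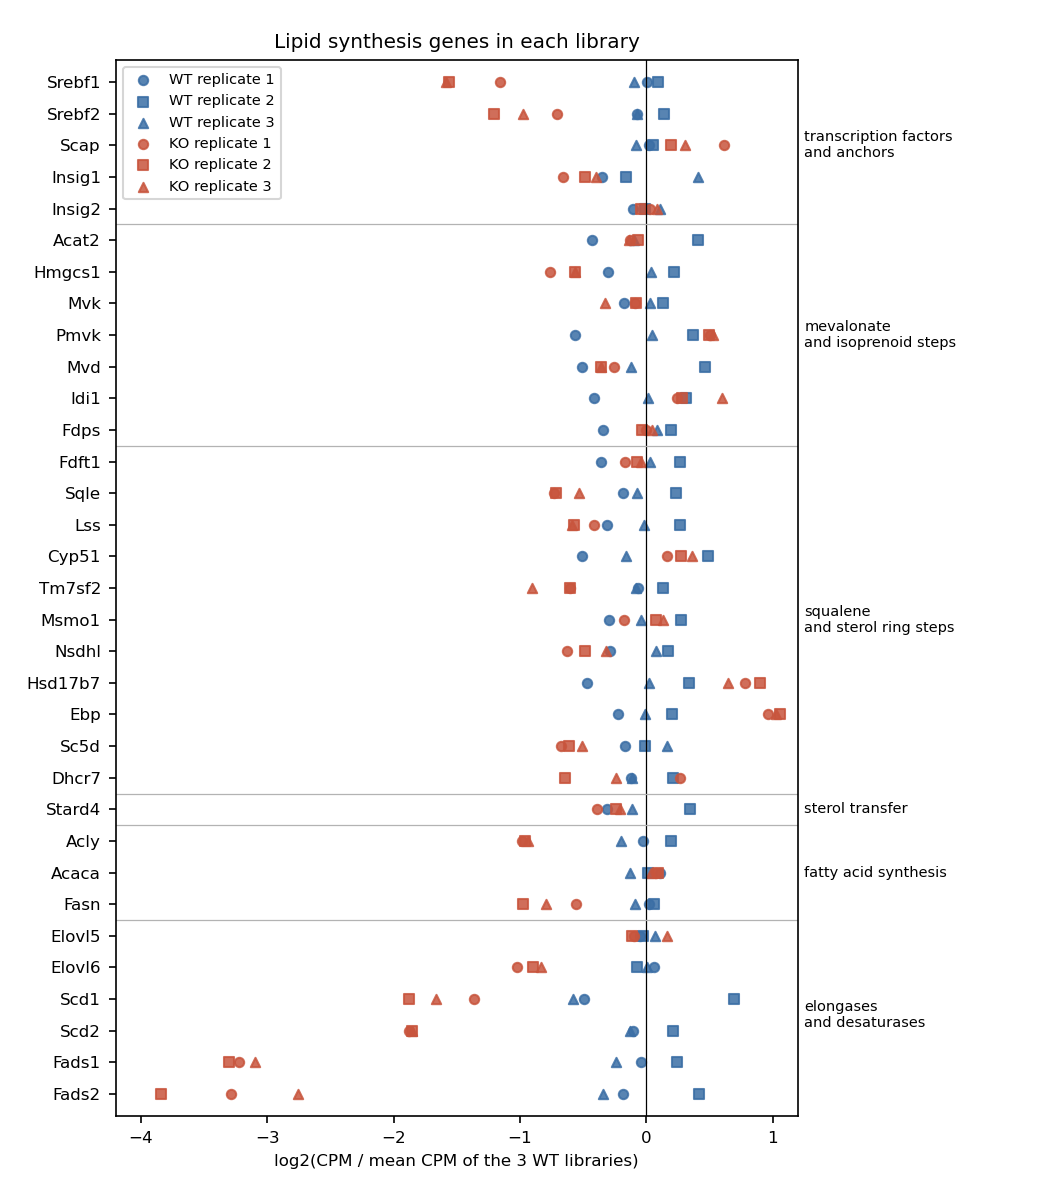
Each gene's level in each library, as log2 of its CPM over the mean CPM of the 3 WT libraries, with genes grouped by role, blue for WT, red for KO and 1 symbol shape per replicate number. The KO points of Fads1, Fads2, Scd2 and Scd1 lie furthest to the left, those of Ebp and Hsd17b7 to the right, and the WT squares (replicate 2) lie to the right of the other WT points in most rows.

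Promoter sequence from RefSeq (GRCm38.p6, 250 bases before to 50 bases after a gene start, read along the gene) was matched for 26 of the 33 genes in 34 windows. The windows of Hmgcs1, Fads2 and Ebp are shown because they belong to a cholesterol gene that fell, to the fatty acid gene with the largest fall and to the cholesterol gene with the largest rise. Capitals mark the sterol regulatory element core TCACNCCAC, the CCAAT box that NF-Y binds, and the NF-κB consensus, each searched on both strands, so that a CCAAT box on the opposite strand reads as ATTGG, and no marked runs overlap in the windows shown. The windows lie at chr13:119690101-119690400 on the plus strand for Hmgcs1, chr19:10101454-10101753 on the minus strand for Fads2 and chrX:8193463-8193762 on the minus strand for Ebp.
Hmgcs1: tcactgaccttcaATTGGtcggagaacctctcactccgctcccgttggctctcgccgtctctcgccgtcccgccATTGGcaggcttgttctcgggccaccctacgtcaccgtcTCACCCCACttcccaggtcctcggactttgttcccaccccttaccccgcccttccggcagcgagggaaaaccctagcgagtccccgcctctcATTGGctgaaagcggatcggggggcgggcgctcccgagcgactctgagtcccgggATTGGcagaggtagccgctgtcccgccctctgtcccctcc
Fads2: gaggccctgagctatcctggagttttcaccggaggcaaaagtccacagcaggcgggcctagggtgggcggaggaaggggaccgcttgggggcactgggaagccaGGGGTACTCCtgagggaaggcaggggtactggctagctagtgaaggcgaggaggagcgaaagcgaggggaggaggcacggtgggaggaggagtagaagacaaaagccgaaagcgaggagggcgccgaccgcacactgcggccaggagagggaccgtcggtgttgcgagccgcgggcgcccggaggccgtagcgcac
Ebp: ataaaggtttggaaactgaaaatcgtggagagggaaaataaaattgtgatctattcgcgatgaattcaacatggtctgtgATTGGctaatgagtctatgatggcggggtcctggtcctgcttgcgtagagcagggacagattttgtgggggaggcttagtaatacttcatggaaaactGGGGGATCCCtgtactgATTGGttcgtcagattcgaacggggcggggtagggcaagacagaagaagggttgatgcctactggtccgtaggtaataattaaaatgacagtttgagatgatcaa

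The Hmgcs1 window held the sterol element core 137 bases before the start, as the single window of the 34 to hold these letters, against 1.24% of all 32851 windows in the RefSeq table. A CCAAT box was found in 22 of the 34 windows, from 21 genes, or 64.7%, against 37.4% of all windows. The E-box CACGTG, which SREBPs can also bind, was found in 7 of the 34 windows, from 6 genes. This was 20.6%, against 7.15% of all windows and 9.55% of windows of tested genes. The NF-κB consensus was found in 5 windows, or 14.7%, against 4.505% of all and 5.22% of windows of tested genes. It lay 146 bases before the start of Fads2 and 72 bases before that of Ebp. The 5 windows were those of Ebp, Fads2, Insig2, Mvk and Srebf1. These genes did not share a direction, since Fads2 and Srebf1 fell, Ebp rose, and Mvk and Insig2 did not pass the test. A match is a run of letters in the reference and not a measured binding site, and the windows of 1 gene can overlap.

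The targeted gene was checked first. Counts of Rela were 1871, 1844 and 1855 across the WT libraries and fell to 318, 223 and 313 across the KO libraries. With 3 libraries per group, its log2 fold change of -2.60 had an SE of 0.14 (adjusted p = 2.74e-06, edgeR). Totals were 20726296 to 20874700 estimated counts per WT library and 20158404 to 20880347 per KO library, and the 33 genes had between 116.8 and 59406 counts in a library, so none was near the floor of 3 counts. That floor was 0.137 to 0.152 CPM, and it covers counting error only. The samples carried no labelled batch or date.

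The tissue label was checked against marker genes, since the libraries are bulk samples in which fewer cells of a type and less RNA per cell cannot be told apart. The 8 corneal epithelium markers summed to 86610 to 90870 CPM in WT and 30860 to 35250 CPM in KO, with 6 lower and 1, Krt14, higher. The 5 epidermal markers summed to 15.1 to 20.3 CPM in WT and 11560 to 23960 CPM in KO, and all 5 rose. The 6 markers of conjunctiva and goblet cells went from 1755 to 2754 CPM in WT to 51950 to 66750 CPM in KO, and all 5 that were tested rose. Most of that sum was the keratins Krt13 and Krt4, with means of 38250 and 21750 CPM in KO. The means of Muc5ac, Spdef, Agr2 and Tff1 in KO were 6.19, 8.22, 5.23 and 0.268 CPM. The corneal, epidermal and conjunctival sums separated the genotypes without overlap, and the part of this shift in the lipid genes was not tested.

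Lipid-producing glands and fat were looked at in the same way. The 14 meibomian and sebaceous markers in the table summed to 18.9 to 27.3 CPM in WT and 273 to 352 CPM in KO, with 7 of the 8 tested higher and none lower. Most of that sum was Cyp4f39, a fatty acid hydroxylase that epidermis also uses, with 3724 to 5036 counts in KO. Awat1, Dgat2l6, Fa2h and Plin4 were at or under 3 counts in every library. Pparg, the regulator of meibocyte differentiation, had 0 counts in each WT library and 6, 8 and 12 counts in KO. Of the adipocyte markers, Cfd, Retn and Car3 were at or under 3 counts in every library, Lep had at most 6 counts, and Fabp4 rose to 582 to 1668 counts in KO from 0 to 9 in WT. Leukocyte markers summed to 238 to 319.5 CPM in WT and 240.5 to 309 CPM in KO, but Itgam, which fell, made up most of both sums. The other 6 summed to 5.44 to 12.5 CPM in WT and 68.8 to 106.5 CPM in KO, and 5 of them rose, Ptprc, Cd74, Csf1r, Cd52 and Lyz2, with Ptprc, which marks leukocytes in general, higher by 3.69 on the log2 scale (adjusted p = 3.62e-05, edgeR). Stromal markers summed to 12.4 to 16.3 CPM in WT and 7.07 to 11.2 CPM in KO, where the WT sum was mostly Pdgfra, which fell. The other 6 in the table summed to 0.183 to 1.44 CPM in WT and 5.67 to 10.1 CPM in KO, and 3 of them, Dcn, Col1a1 and Col1a2, rose (adjusted p = 0.000420, 0.0360 and 0.00236), with Dcn at 0 to 1 counts in WT and 24 to 153 in KO. The Col1a1 call was kept in 12 of 16 alternative fits and lost without WT replicate 1, WT replicate 3, KO replicate 2 or KO replicate 3, with an adjusted p of up to 0.103. The vessel markers Pecam1 and Kdr summed to 0.0458 to 0.189 CPM in WT and 0.752 to 0.897 CPM in KO, without overlap, and Pecam1 rose by 2.54 on the log2 scale (SE 0.47, adjusted p = 0.00162). The part of these cells in the lipid genes was not tested.

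Among the regulators, both SREBP genes were lower in KO. Srebf1, whose product favours fatty acid genes (GRCm38 chromosome 11, 60199084 to 60222686), had 212, 224 and 196 CPM in WT and 94.6, 71.3 and 70.2 CPM in KO. The lowest WT library was above the highest KO library by more than the range of either group. On the CPM scale 37.35% of the WT level was left (log2 fold change -1.42, SE 0.13, adjusted p = 4.23e-05, edgeR). Srebf2, whose product favours cholesterol genes (chromosome 15, 82147269 to 82205379), had 460, 534 and 460 CPM in WT and 296.5, 210.0 and 246.0 CPM in KO. The groups again did not overlap, and KO was lower by a log2 fold change of -0.95 with an SE of 0.14 (adjusted p = 0.000526).

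The proteins that hold SREBPs moved differently from one another. Insig1, an anchor that is itself a target of SREBPs, had 193, 220 and 327 CPM in WT and 156, 176 and 187 CPM in KO, with WT replicate 3 well above the rest. It had a log2 fold change of -0.51 with an SE of 0.19 (adjusted p = 0.0430, edgeR), which was -0.24 without WT replicate 3 (adjusted p = 0.132), and the call was also lost without each KO library (adjusted p = 0.122, 0.0838 and 0.0604), with a mean count of at least 50 (0.0562) and with the length correction (0.0785), so it was kept in 11 of 17 alternative fits. Scap, the escort that carries SREBPs to the Golgi, had 84.1, 86.2 and 78.3 CPM in WT and 127, 94.95 and 103 CPM in KO. It was the regulator that rose, by 0.39 ± 0.12 on the log2 scale (SE, adjusted p = 0.0205), and the call was kept in 13 of 17 alternative fits. It was lost without WT replicate 3 (adjusted p = 0.0649), with total counts only (0.29, adjusted p = 0.0532), and with limma on log2(FPKM + 1) and log2(FPKM + 0.1) (adjusted p = 0.0673 and 0.0648). Insig2, the other anchor, had 57.9 ± 4.21 CPM in WT and 58.9 ± 2.69 CPM in KO (SD, n = 3), and the sign of its log2 fold change of 0.03 turned with the scaling.

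Of the 7 enzymes from acetyl-CoA to the isoprenoids, 1 fell and 6 did not pass the test, with a median log2 fold change of -0.11. The share that fell was 14.3%, against 30.2% of all tested genes, and none rose, against 31.8%. The one that fell was Hmgcs1, which makes HMG-CoA (chromosome 13, 119690351 to 119708260), with 506, 728 and 641 CPM in WT and 369, 423 and 422 CPM in KO. Every KO library was below every WT library, although the WT libraries differed widely among themselves. It fell by 0.63 on the log2 scale (SE 0.15, adjusted p = 0.00546, edgeR). Its promoter window held the sterol element core, while those of Tm7sf2, Sc5d, Lss and Nsdhl, which also fell, did not. A link between the element and the fall was not tested.

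The other 6 enzymes did not pass. Pmvk, a mevalonate pathway kinase, had 28.7, 54.6 and 43.6 CPM in WT and 60.1, 59.5 and 61.1 CPM in KO, without overlap, and its log2 fold change of 0.51 ± 0.20 had an adjusted p of 0.0531 (edgeR, SE). Idi1, the isopentenyl diphosphate isomerase, had a log2 fold change of 0.38 (adjusted p = 0.0992), with WT replicate 2 at 44.4 CPM inside the KO range of 42.2 to 54.1 CPM. Both passed as higher without WT replicate 2, with log2 fold changes of 0.74 for Pmvk (adjusted p = 0.00745) and 0.57 for Idi1 (adjusted p = 0.0194). Mvk, the mevalonate kinase, and Mvd, the decarboxylase that follows, had log2 fold changes of -0.16 (adjusted p = 0.233) and -0.32 (adjusted p = 0.219), and Mvd passed as lower without WT replicate 1 (-0.51, adjusted p = 0.0357) and Mvk with the length correction (-0.29, adjusted p = 0.0471). Acat2, a thiolase at the head of the pathway, had 70.6 ± 21 CPM in WT and 65.4 ± 1.81 CPM in KO (SD, n = 3), and the sign of its log2 fold change of -0.11 turned without WT replicate 2. Fdps, the farnesyl diphosphate synthase, had 406 ± 75.9 CPM in WT and 407 ± 12.2 CPM in KO (SD, n = 3), and its log2 fold change of 0.00 (SE 0.14) turned in sign with total counts only.

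From squalene to cholesterol, 5 of 11 enzymes fell, 2 rose and 4 did not pass, with a median log2 fold change of -0.16. The shares were 45.45% lower and 18.2% higher, against 30.2% and 31.8% of all tested genes. Sqle, the squalene epoxidase that limits the rate of the sterol branch (chromosome 15, 59315092 to 59331743), had 357, 477 and 386 CPM in WT and 246, 248 and 281 CPM in KO. The KO libraries were all lower than the lowest WT library, and 63.5% of the WT level was left (log2 fold change -0.66, SE 0.13, adjusted p = 0.00241, edgeR). Tm7sf2, a sterol reductase, had 37.1, 42.6 and 36.7 CPM in WT and 25.6, 25.5 and 20.7 CPM in KO. It fell the most of the cholesterol enzymes among the 33 genes, by 0.70 on the log2 scale (SE 0.12, adjusted p = 0.00108). Sc5d, a sterol desaturase, had 251, 279 and 316 CPM in WT and 177, 184.5 and 198.5 CPM in KO, without overlap (log2 fold change -0.60 ± 0.11, SE, adjusted p = 0.00173).

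A pair of smaller falls was less steady. Lss, the lanosterol synthase that closes the ring, had 175, 261 and 214 CPM in WT and 163, 146 and 144 CPM in KO (log2 fold change -0.52 ± 0.15, SE, adjusted p = 0.0132, edgeR). The lowest WT library was close to the highest KO library, and the call was lost with a correction for gene length (-0.29, adjusted p = 0.128). Nsdhl, a dehydrogenase that helps remove methyl groups from the ring, had 117, 160 and 150 CPM in WT and 92.3, 101.5 and 114 CPM in KO (log2 fold change -0.47 ± 0.14, SE, adjusted p = 0.0152). Its highest KO library was just below its lowest WT library, and the call was lost without WT replicate 2 (adjusted p = 0.0557) and without WT replicate 3 (adjusted p = 0.0544).

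The pair of ring enzymes that rose were neighbours in the pathway order drawn here. Ebp, the sterol isomerase (chromosome X, 8185329 to 8193512), had 43.6, 58.6 and 50.6 CPM in WT and 99.0, 106 and 104 CPM in KO. The KO libraries were close to one another and far above the highest WT library, at 202% of the WT mean (log2 fold change 1.02, SE 0.12, adjusted p = 0.000126, edgeR). Since this is close to the limit of 2-fold, the stricter call was lost without WT replicate 1 and without KO replicate 2. Hsd17b7, a ketoreductase of the ring (chromosome 1, 169949535 to 169969240), had 36.2, 63.3 and 50.9 CPM in WT and 86.3, 93.65 and 78.4 CPM in KO. It rose by 0.78 ± 0.18 on the log2 scale (SE, adjusted p = 0.00611), and kept this call in all 17 alternative fits, as did Ebp.

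Fdft1, Cyp51, Msmo1 and Dhcr7 did not pass. Cyp51, the lanosterol demethylase, had 151, 300 and 192 CPM in WT and 240, 259 and 275 CPM in KO. The KO libraries lay inside the WT range, set by WT replicate 2, and without that library Cyp51 passed as higher (log2 fold change 0.60, adjusted p = 0.00760, edgeR, against 0.27 and 0.323 with all libraries). Fdft1, the squalene synthase, had 231 ± 49.2 CPM in WT and 216 ± 9.86 CPM in KO, and Msmo1, a sterol methyl oxidase, had 248 ± 49.1 CPM and 251 ± 27.3 CPM (SD, n = 3). Dhcr7, the last reductase of the pathway, was spread more widely in KO, with 134, 71.6 and 94.5 CPM, than in WT, with 102, 129 and 103 CPM. The signs of the last 3 genes turned under at least 1 alternative fit. Stard4, which carries sterol between membranes, had 98.7 ± 23.97 CPM in WT and 81.4 ± 5.31 CPM in KO (SD, n = 3, log2 fold change -0.28, adjusted p = 0.164).

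**Figure D2:**
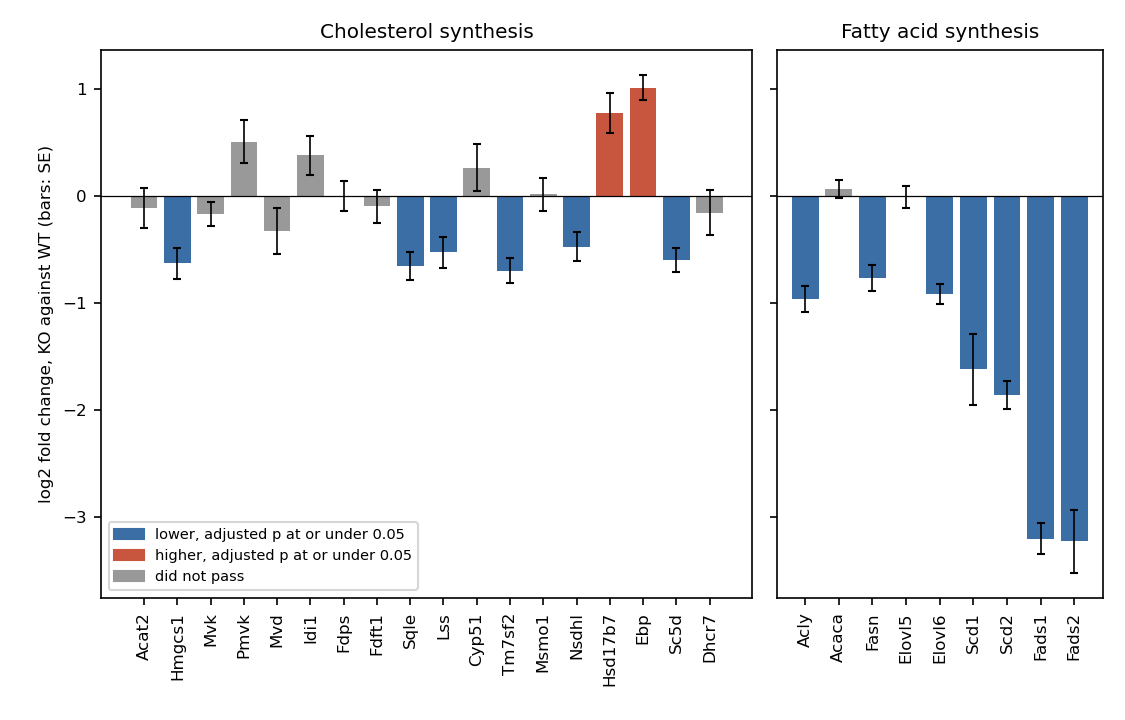
Log2 fold change of each enzyme, KO against WT, with enzymes of cholesterol synthesis in pathway order (left) and of fatty acid synthesis (right); error bars are SE from 3 libraries per group, blue bars fell, red bars rose and grey bars did not pass. In the cholesterol branch blue, red and grey bars alternate between -0.70 and 1.02, whereas the fatty acid branch reaches -3.23 and holds no red bar.

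The fatty acid branch began with Acly, which makes cytosolic acetyl-CoA from citrate (chromosome 11, 100454359 to 100528000), at 488, 569 and 431 CPM in WT and 250.3, 255 and 259 CPM in KO. The 3 KO libraries nearly coincided, with 51.4% of the WT level left (log2 fold change -0.96, SE 0.12, adjusted p = 0.000192, edgeR). Acaca, the acetyl-CoA carboxylase of the committed step, had 120 ± 9.74 CPM in WT and 125 ± 2.204 CPM in KO (SD, n = 3), and overlapped between the groups. Its log2 fold change of 0.07 changed sign with total counts only and reached 0.37 (adjusted p = 0.00417) with a correction for gene length. Fasn, the fatty acid synthase (chromosome 11, 120805947 to 120824547), had 426, 437 and 394.5 CPM in WT and 285, 213 and 241 CPM in KO. The groups were apart by more than the range of the KO libraries, and Fasn fell by 0.77 on the log2 scale (SE 0.12, adjusted p = 0.000804).

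Of the 2 elongases among the 33 genes, Elovl6 fell and Elovl5 did not pass. Elovl6, which lengthens palmitate to stearate (chromosome 3, 129532252 to 129641930), had 250.1, 228 and 241 CPM in WT and 118, 129 and 134 CPM in KO. The groups were far apart for their small spread, and 53.0% of the WT level was left (log2 fold change -0.92 ± 0.09, SE, adjusted p = 6.48e-05, edgeR). Elovl5, which lengthens polyunsaturated fatty acids, had 63.2, 64.2 and 68.7 CPM in WT and 61.1, 60.5 and 73.3 CPM in KO. These overlapped throughout, and the log2 fold change of -0.01 ± 0.10 (SE) changed sign with RLE factors.

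All 4 desaturases fell, and they lie in 2 gene neighbourhoods of chromosome 19. Scd2, a stearoyl-CoA desaturase that makes monounsaturated fatty acids (44293143 to 44306864), had 2217, 2764 and 2182 CPM in WT and 648, 660 and 661.5 CPM in KO. The KO libraries, at 656.5 ± 7.08 CPM (SD, n = 3), scattered far less than the WT libraries, and 27.5% of the WT level was left (log2 fold change -1.86, SE 0.13, adjusted p = 9.66e-06, edgeR). Scd1, its neighbour (44394450 to 44408816), had 61.2, 139 and 57.5 CPM in WT and 33.4, 23.4 and 27.1 CPM in KO. WT replicate 2 had more than either other WT library by far, and without it the log2 fold change went from -1.62 ± 0.33 (SE, adjusted p = 0.00294) to -1.08 (adjusted p = 0.000631). The Scd genes are close copies and counts of Scd1 and Scd2 were not whole, so reads shared between them may have been split. The related copies Scd3 and Scd4, named after their values were seen, had at most 31.6 and 60.7 counts in any library, far fewer than the 467 counts of Scd1 in its lowest.

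Fads1 and Fads2, the front-end desaturases that make polyunsaturated fatty acids, showed the largest falls among the 33 genes. Fads1 (10182888 to 10196874) had 133, 163 and 116 CPM in WT and 14.7, 13.9 and 16.1 CPM in KO. Each KO library held far less than any WT library, with 10.85% of the WT level left (log2 fold change -3.20, SE 0.14, adjusted p = 1.28e-06, edgeR). Fads2 (10044341 to 10101515) had 73.9, 112 and 66.2 CPM in WT and 8.61, 5.87 and 12.5 CPM in KO. The KO mean was 10.7% of the WT mean, with a log2 fold change of -3.23 and an SE of 0.30 (adjusted p = 3.99e-05), and both genes passed as lower in all 17 alternative fits. Fads3, the remaining gene of the cluster, also named after its values were seen, did not pass, with estimated counts of 102, 263 and 67.4 in WT against 74.5, 87.25 and 111 in KO (log2 fold change -0.56, adjusted p = 0.313).

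**Figure D3:**
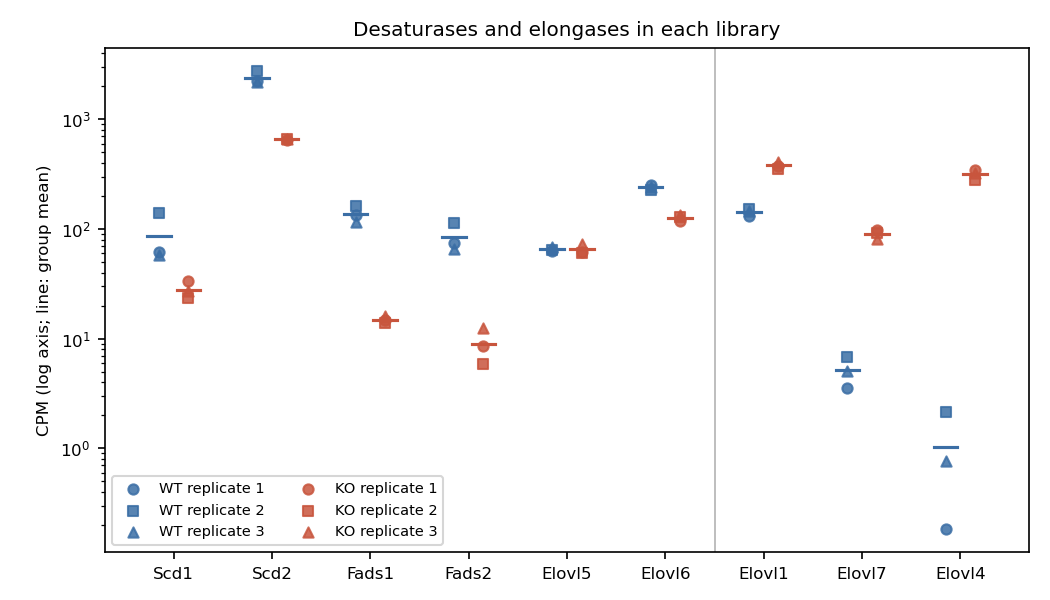
CPM of desaturases and elongases in each library on a log axis, with WT in blue, KO in red, a line at each group mean, and to the right of the grey line 3 elongases that are not among the 33 genes. Scd1, Scd2, Fads1, Fads2 and Elovl6 are lower in KO without overlap, Elovl5 overlaps, and Elovl1, Elovl7 and Elovl4 are higher in KO.

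Levels between genes were compared per length, in TPM, which divides counts by transcript length and scales them to a fixed total, within a group. In WT the highest of the 33 was Scd2 with 960 ± 142 TPM (SD, n = 3), rank 138 of all genes in the table, followed by Fdps with 716 ± 120 TPM and Hmgcs1 with 393 ± 65.7 TPM. In KO the order was Fdps with 568 ± 9.73 TPM, Msmo1 with 241 ± 25.25 TPM and Scd2 with 208 ± 2.87 TPM, and Scd2 was rank 573 of all genes. Hmgcs1 followed Scd2 in KO at 201 ± 15.5 TPM, a difference smaller than its own SD. Among the 33 genes Fads2 moved from rank 12 to rank 31 and Fads1 from rank 19 to rank 33, the last, while Ebp moved from rank 24 to rank 8.

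The summed CPM showed the split of the branches in each library. The 9 fatty acid enzymes summed to 3842, 4598 and 3666 CPM in WT and 1545, 1488 and 1547 CPM in KO, of which Scd2 alone was the larger part in WT. The 18 cholesterol enzymes summed to 2688, 3889 and 3318 CPM in WT and 2742, 2816 and 2926 CPM in KO. The fatty acid sums did not overlap, whereas each KO sum of the cholesterol enzymes lay inside the WT range on the CPM scale. The TPM scale divides by length and holds each library to the same total. On it the cholesterol enzymes summed to 2591, 3602 and 2967 in WT and 2113, 2163 and 2207 in KO. Every KO sum there lay below every WT sum. Genes whose mean CPM hardly differed between the groups dropped in TPM too. From WT to KO the mean TPM of Fdps went from 716 to 568, of Insig2 from 52.1 to 42.2 and of Trp63 from 138 to 106. The lower TPM sums therefore do not by themselves show a fall particular to the cholesterol enzymes. The fatty acid sums on the TPM scale were 1688, 1999 and 1481 in WT and 481, 474.1 and 487.2 in KO. By the median log2 ratio to the WT mean, the fatty acid enzymes were at -1.02, -0.97 and -0.94 in the KO libraries and the cholesterol enzymes at -0.15, -0.08 and -0.19.

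The WT libraries differed among themselves in these genes more than the KO libraries did. The median coefficient of variation was 16.0% in WT and 7.645% in KO. It was not computed over all tested genes, so the wider WT spread may not be particular to these genes. WT replicate 2 had the highest CPM of the 3 WT libraries in 27 of the 33 genes and in 17 of the 18 cholesterol enzymes, against 33.1% of all tested genes. The median log2 ratio of the cholesterol enzymes to the WT mean was -0.31 in WT replicate 1, 0.25 in WT replicate 2 and 0.00 in WT replicate 3. The same library had 1181 CPM of Krt14, a basal keratin, against 238.5 and 318 CPM in the other WT libraries, and the part of this in the lipid genes was not tested.

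Without WT replicate 2, 15 of the 33 genes fell and 6 rose. Nsdhl lost its call, and Pmvk, Idi1 and Cyp51 gained one as higher. Fads1 and Fads2 had log2 fold changes of -3.06 and -2.96 in that fit, Scd2 of -1.74 and Srebf1 of -1.37. Hmgcs1 and Sqle still passed as lower, at -0.50 (adjusted p = 0.0187, edgeR) and -0.52 (adjusted p = 0.00674).

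**Figure D4:**
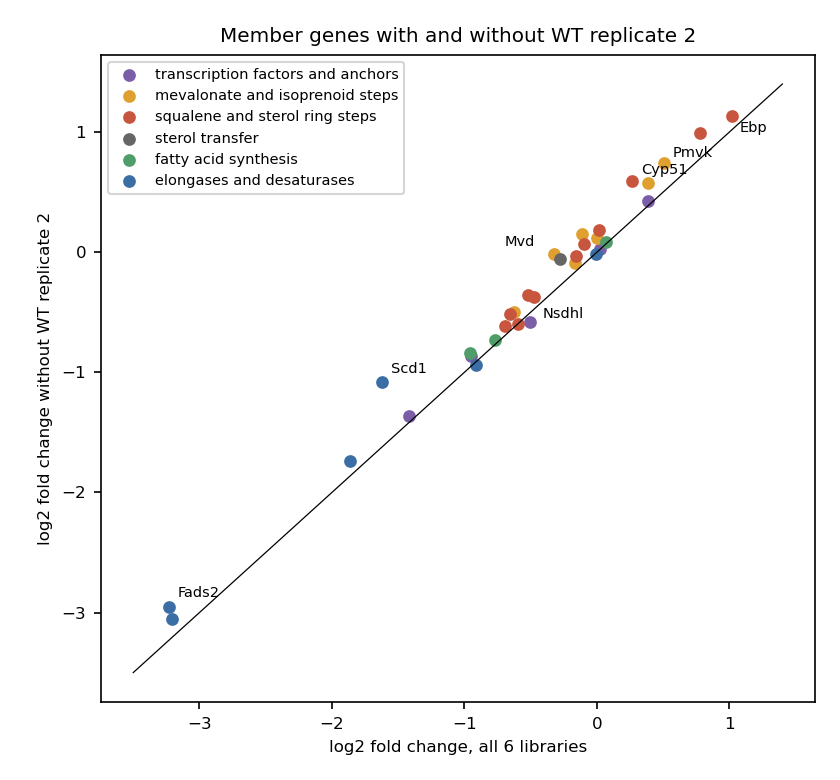
Log2 fold change of each of the 33 genes, KO against WT, from all 6 libraries (horizontal) and without WT replicate 2 (vertical), coloured by role, with the line of equal values. Most points lie above the line, Scd1 the furthest, and Fads1, Fads2, Scd2 and Srebf1 stay at the lower left.

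Other lipid genes, from 5 lists of 110 symbols outside the 33 genes, were read in the same fit. Of the 98 tested, 34 fell and 31 rose, or 34.7% and 31.6%, close to the background of 30.2% and 31.8%, and their median log2 fold change was -0.05. The list of sterol branch, uptake and efflux genes had 8 of 27 lower and 10 higher, with a median of 0.15. Scarb1, a receptor for high-density lipoprotein, fell by 1.70 ± 0.16 (SE, adjusted p = 4.48e-05, edgeR) and Mylip, a ubiquitin ligase, by 1.24 ± 0.13 on the log2 scale (adjusted p = 6.93e-05).

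That list held rises as well, and they were not set apart from the falls by step. Abcg1, a relative of Abcg4 below and named outside the rule after its values were seen, fell by 0.93 on the log2 scale. Cyp7b1, an oxysterol hydroxylase, had 31, 51 and 25 counts in WT against 337, 411 and 504 in KO (log2 fold change 3.65 ± 0.26, SE, adjusted p = 1.09e-05, edgeR). Abcg4, a sterol exporter, rose by 2.70 and Lrp8, a lipoprotein receptor, by 1.65 on the log2 scale (adjusted p = 0.000333 and 0.00585), the latter by 2.38 without WT replicate 2. Idi2, another isopentenyl diphosphate isomerase, had 0, 2 and 0 counts in WT against 58.0, 338 and 77 in KO. The KO libraries differed widely for Idi2, and no fold is given against so few counts (adjusted p = 0.000573).

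The list of SREBP processing and turnover had 5 of 15 genes lower and 2 higher, with a median of -0.12. These were 33.3% and 13.3%, against 30.2% and 31.8% of all tested genes. Rnf145, a ubiquitin ligase known to act on Scap, fell by 1.05 ± 0.12 (SE) and Erlin2, a membrane protein of the endoplasmic reticulum, by 0.71 ± 0.08 on the log2 scale (adjusted p = 0.000126 and 0.000129, edgeR). Syvn1, a ubiquitin ligase of the same membrane, had a log2 fold change of -0.37 (adjusted p = 0.0498, edgeR), and kept its call in 9 of 17 alternative fits. Mbtps2, the intramembrane protease that frees SREBPs, rose by 0.44 and Ufd1, a cofactor of membrane protein extraction, by 0.43 (adjusted p = 0.00565 and 0.00354).

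In the list of other fatty acid synthesis and elongation genes 9 of 25 were lower and 9 higher, with a median of -0.07. Each share was 36.0%, against 30.2% and 31.8% of all tested genes. Elovl4, which makes very long-chain fatty acids of the epidermal barrier and the tear film, had 4, 46 and 16 counts in WT against 6854, 5563 and 6459 in KO. Every KO library was far above every WT library (log2 fold change 8.26 ± 0.49, SE, adjusted p = 4.20e-06, edgeR), which was 9.39 without WT replicate 2. Elovl7, another elongase, rose by 4.12 ± 0.21 (SE, adjusted p = 2.20e-06), Me1, a malic enzyme that makes NADPH, by 4.23 ± 0.15 (adjusted p = 4.47e-07), and Hacd1, a dehydratase of elongation, by 2.28 ± 0.50 from at most 5.27 counts (adjusted p = 0.00415). Elovl1, shown in the plot of elongases and named outside the rule after its values were seen, rose by 1.403 on the log2 scale. The falls were smaller, with Acss2, which makes acetyl-CoA from acetate, Acsl4 and Acsl3, which activate long-chain fatty acids, and Hacd2, a dehydratase of elongation, between -0.92 and -0.90.

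Triglyceride synthesis and storage had 8 of 15 genes lower and 3 higher, with a median of -0.30. Lpin1, a phosphatidate phosphatase, had the largest fall, of 1.35 ± 0.19 (SE, adjusted p = 0.000348, edgeR), followed by Agpat1, an acyltransferase, Plin3, a lipid droplet coat protein, and Lpin2, another phosphatase, at -0.88, -0.80 and -0.58. Pnpla3, a lipid droplet enzyme, rose by 2.21, Dgat2, which makes triglyceride, by 1.94 and Lpin3, also a phosphatase, by 0.94 (adjusted p = 0.000201, 8.85e-06 and 0.00257). Fatty acid oxidation had 4 of 16 genes lower and 7 higher, or 25.0% and 43.75%, with a median of 0.17. Ppara and Ppargc1a, regulators of oxidation, fell by 2.17 ± 0.24 and 1.73 ± 0.42, Ehhadh, a peroxisomal enzyme, by 1.36 ± 0.16 and Acadm, a mitochondrial dehydrogenase, by 0.58 ± 0.13 (SE). Without KO replicate 1 the log2 fold change of Ppargc1a was -2.35. Ppargc1b, a relative of Ppargc1a, rose by 1.32, the mitochondrial enzymes Hadhb and Hadh by 0.94 and 0.93, and Cpt2, which loads fatty acids in mitochondria, by 0.61 on the log2 scale.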

How the data were processed

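The members and the lists of related and marker genes were chosen with earlier results of these data known. The methods of the study describe depletion of ribosomal RNA and single-end reads from a BGI instrument, while the labels name an Illumina kit. The authors aligned reads with Bowtie2 (2.2.5 per the submitters' processing notes) and deposited estimated counts of RSEM (1.2.12), FPKM and TPM per library. Deposited TPM values set the order of genes within a group, and deposited FPKM values served in alternatives. The authors' own fold changes and adjusted p-values, also in the table, were not used. Coordinates are those of GRCm38, whereas the processing notes list mm9. Strand use in counting is not stated, so overlapping genes may share reads. RSEM splits shared reads: 34.1 to 36.1% of the nonzero gene counts in a library, and some counts of 12 of the 33 genes, were not whole.

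Groups came from titles and genotype labels. The labels do not name the animal behind each library, so p-values measure the spread between libraries. Estimated counts were rounded and tested in edgeR 4.0.16 (R 4.3.3: TMM, filterByExpr, glmQLFit, glmQLFTest, genotype as the single term), with Benjamini-Hochberg adjustment over 13305 genes. CPM used TMM factors, 1.01 to 1.05 in WT and 0.952 to 0.990 in KO. SE is the absolute log2 fold change over the square root of F. On simulated counts of 13144 genes for KO against WT, the test recovered 79% of 2-fold and 99% of 4-fold changes, and 16 unchanged genes were called. Few genes were changed there, up and down in equal number, whereas in the data 30.2% of tested genes fell and 31.8% rose. These rates may therefore not carry over to the data. Alternatives were DESeq2 1.42.0, limma 3.58.1 on log2(FPKM + 1) and log2(FPKM + 0.1), total counts only, RLE factors, TMM leaving out the 20 highest genes, a filter on mean count (50 or more) or none, glmTreat, robust dispersion, a loess correction for effective gene length, the replicate number as a block, and leaving out each library.

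All 33 members are named by role; of each related list, the genes called, at most the 4 largest changes in each direction; and Rela. Sterol branch genes Npc1l1, Nr1h3, Ch25h and Cyp46a1, and Acacb, Thrsp, Elovl2, Plin4 and Plin5 were too low to test. Elovl3 and Ubxd8 of the related lists, and Mc5r, Adipoq, Plin1, Kera, Cdh5 and Emcn of the marker lists, were not found under these symbols. The values of some further listed genes are not reported here. RefSeq promoter windows were not matched for 7 of the 33 genes, Fdps, Sqle, Fdft1, Fads1, Stard4, Scd1 and Scd2.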

Additional observations from a re-analysis of the deposited data

How the results depend on the processing

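Of 561 values over the 33 genes and 17 alternative fits each, 503 kept direction and side of the threshold, 13 of 4 genes (Insig1, Lss, Nsdhl and Scap) lost the call, 11 of 6 genes gained one and 34 of 8 uncalled genes changed sign. Counts of genes lower at an adjusted p of 0.05 stayed within 1.5 times of 16. Genes higher were 5 rather than 3 with the length correction and 2 to 6 when each library was left out. At the study threshold the genes higher were 0 rather than 1 with total counts only, no filter, the length correction, glmTreat and both limma fits, and 0 to 1 when each library was left out, while the genes lower were 7 rather than 4 with total counts only and with limma on log2(FPKM + 0.1). The median log2 fold change ranged from -0.51 to -0.0860 when each library was left out.

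The sign changes were as follows, on the log2 scale. With total counts only, Insig2 was -0.0678, Fdps -0.0888, Msmo1 -0.0749 and Acaca -0.0279. With limma on log2(FPKM + 1) and log2(FPKM + 0.1), Insig2 was -0.0607 and -0.0629, Fdps -0.0780 and -0.0782, Msmo1 -0.0692 and -0.0696, and Acaca -0.0260 and -0.0274. With the length correction Fdps was -0.29, Msmo1 -0.0825, Fdft1 0.0624 and Elovl5 0.0745, and with no filter Fdps was -0.0153 and Msmo1 -0.0016. Elovl5 was 0.0013 with RLE factors, 0.0206 with a mean count of at least 50 and 0.0014 with DESeq2. Leaving out each library gave ranges of -0.0159 to 0.0955 for Insig2, -0.28 to 0.15 for Acat2, -0.13 to 0.12 for Fdps, -0.24 to 0.0668 for Fdft1, -0.10 to 0.18 for Msmo1, -0.43 to 0.0357 for Dhcr7 and -0.10 to 0.0419 for Elovl5. The cause of these changes was not tested.

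Both genotypes use replicate numbers 1 to 3 but come from different animals, and same-numbered libraries did not deviate together (correlations 0.03, -0.01 and 0.06). With the replicate number as a block, 16 genes fell, 4 rose, Pmvk being the addition (0.55, adjusted p = 0.0329, edgeR), and the median was -0.27. Each of the 33 genes had at least 116.8 counts in every library.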
